A study of Nothobranchius furzeri with 25 samples.

Results

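The last step of life sampled in the turquoise killifish (Nothobranchius furzeri) was described here as the difference between whole brains taken at 39 weeks and at 27 weeks. It rests on 10 of the 25 libraries of the series, 5 at 39 weeks (JM1, JM12, JM13, JM15 and JM18) and 5 at 27 weeks (JM52, JM62, JM66, JM69 and JM72), chosen by the age given in their labels. The other 15 libraries, 5 each at 20, 12 and 5 weeks, entered the same model to estimate the spread between animals. They also supplied comparisons of 12 against 5 weeks, of 20 against 12 weeks and, with the 27-week libraries, of 27 against 20 weeks. All fish were untreated males of the wild-derived strain MZM-04/10, killed at one time of day after fasting, with 1 library per animal. In the terms of the study 39 weeks is an old group, of which most of a cohort has died, and 27 weeks is the median lifespan, so animals at 39 weeks are survivors and are not the same fish followed over time.

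The turquoise killifish lives in seasonal ponds and is among the shortest-lived vertebrates kept in captivity, which makes it a model of brain ageing. Whole brain RNA is a mixture of neurons, radial glia, oligodendrocytes, microglia, vessels and blood, and a lower value of a gene can mean fewer cells of a type or less RNA per cell, which cannot be told apart in bulk tissue. Several of the genes described here belong to the circadian clock, in which activators of the BMAL type (ARNTL genes) switch on their own repressors, among them the DEC proteins (BHLHE40 and BHLHE41) and the CIART protein (annotated here as C1ORF51 or C19H1ORF51), so that activators and repressors peak at different hours of the day.

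Counts per transcript contig were normalised by the TMM method and tested with edgeR over 16484 genes, and levels are given as CPM, the count rate of a normalised library. Total counts of the 10 libraries lay between 15877033 and 23985244, and were lowest in JM1 (15877033) and JM12 (16158791) of 39 weeks. These libraries also had the fewest contigs with a count, 17461 and 17482. The part of depth in the changes below was not tested. Names were available for 1906 of the genes tested, those from the start of the alphabet to C1QL4 and MEX3A, which the methods of the study pair with a zebrafish gene, and genes annotated as one of several copies may share reads with the other copies. No 2 libraries of an age were alike within sampling noise, the chi-square per degree of freedom being 13.0 at the lowest. The first principal component of log2 CPM held 24.4% of the variance among the 10 libraries and the second 19.4%. On the first component the 39-week libraries JM1, JM12, JM15, JM18 and JM13 lay at 39.1, 33.9, 16.7, 1.16 and -13.6, and the 27-week libraries lay between -26.1 and -2.10. JM13 thus lay within the range of 27 weeks, and its mean Spearman correlation was 0.983 with the other brains of 39 weeks and 0.986 with those of 27 weeks. The median SD of a gene was 0.191 log2 CPM among the 39-week brains and 0.199 log2 CPM among the 27-week brains.

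**Figure D1:**
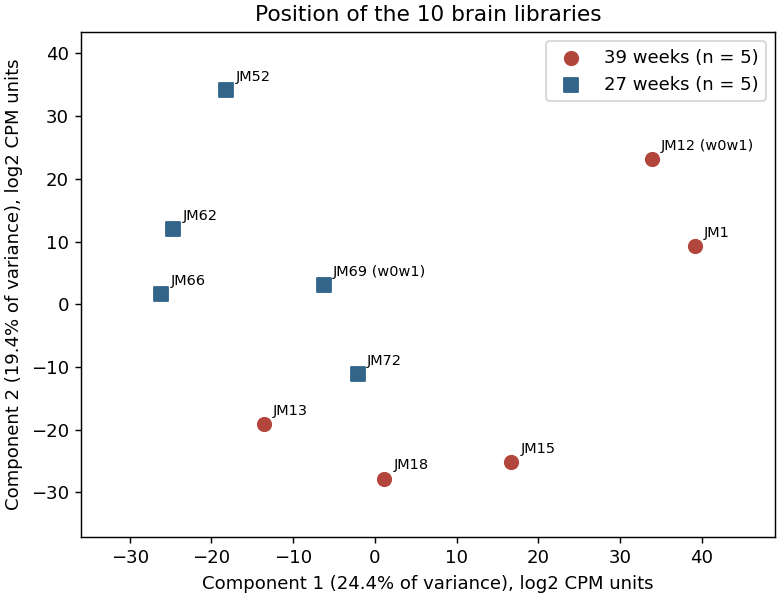
Position of the 10 libraries on the first and second principal component of log2 CPM (units of log2 CPM), 1 point per brain, circles for 39 weeks and squares for 27 weeks. JM1 and JM12 of 39 weeks lie farthest to the right at 39.1 and 33.9, and JM13 of 39 weeks lies at -13.6 among the brains of 27 weeks.

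At 39 weeks 90 genes (0.546% of those tested) had risen and 87 (0.528%) had fallen relative to 27 weeks, 1.07% in all, at an adjusted p below 0.05 (edgeR quasi-likelihood test, Benjamini-Hochberg adjustment). The changes were moderate, with a median fold of 1.34 among the genes that rose and of 1.49 among those that fell, and 5 genes rose and 15 fell by 2-fold or more. Most calls lay close to the threshold, since 121 of the 177 had an adjusted p of 0.04 or more and 10 had one below 0.03. At an adjusted p below 0.1 there were 604 higher and 546 lower genes, and 3551 genes had an unadjusted p below 0.05. DESeq2 on the same libraries called 524 higher genes (3.18%) and 449 lower ones (2.72%), or 5.90%, and 168 of the 177 edgeR calls were among them. The values of all 5 brains at 39 weeks lay above all 5 at 27 weeks for 302 genes, or 1.83%, and below them for 244 genes, or 1.48%. The largest fitted fall, with a log2 fold change of -5.48, belonged to an unnamed contig with 166 CPM in JM52 of 27 weeks and at most 1.13 CPM in the other 9 brains, and it therefore rests on 1 library.

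The number of calls depended on single brains. Without one 39-week library it lay between 0 higher and 1 lower gene (without JM1) and 682 higher and 575 lower genes (without JM13), and without one 27-week library between 0 and 3 (without JM62) and 557 and 492 (without JM72). Without both JM1 and JM12, a choice made after the data were seen, 0 genes were higher and 15 lower by edgeR, with 1942 genes at an unadjusted p below 0.05. With the 10 libraries alone edgeR called 0 higher and 2 lower genes, with 2995 at an unadjusted p below 0.05, and DESeq2 called 198 and 234. Without the 6 libraries that carry the mark w0w1 in their titles, JM12 and JM69 among them, 2 genes were higher and 9 lower. The 177 genes kept the direction of their change in 176 to 177 of 177 cases in every fit with a single library left out. These fits reuse most of the brains by which the genes were chosen, so a kept direction is no independent support.

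**Figure D2:**
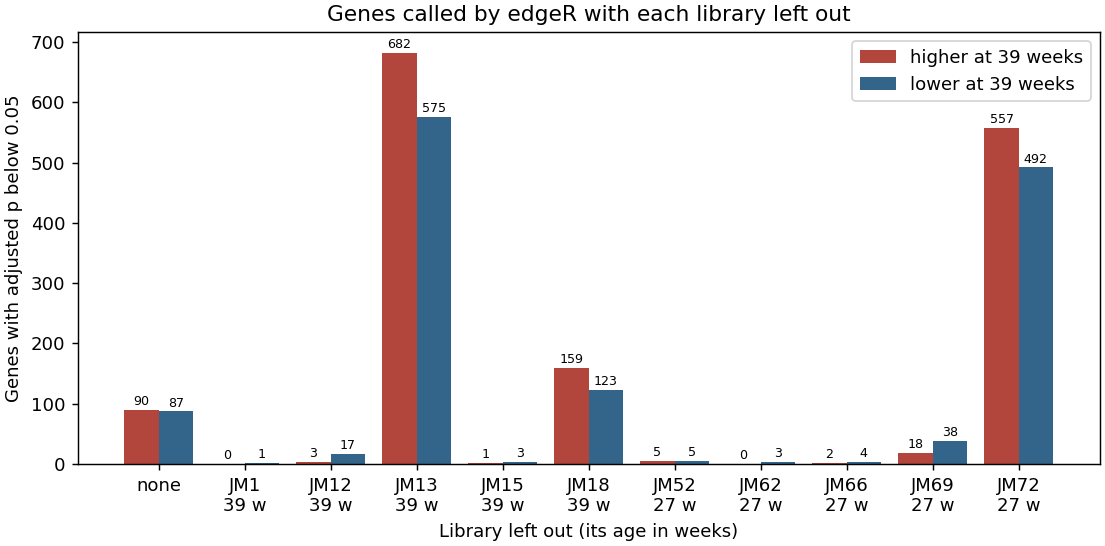
Number of genes with an adjusted p below 0.05 (edgeR, vertical axis) higher (red) and lower (blue) at 39 weeks, with all libraries (none) and with each of the 10 libraries left out (horizontal axis, with its age in weeks). The pair of bars is 90 and 87 with all libraries, 682 and 575 without JM13 and 0 and 1 without JM1.

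**Figure D3:**
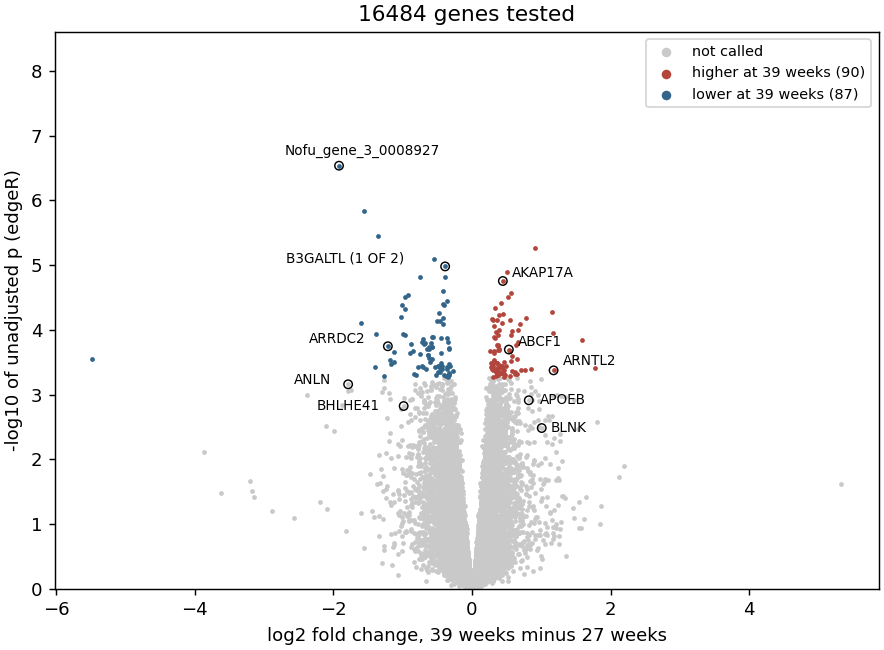
Each of the 16484 genes by its log2 fold change (39 minus 27 weeks, horizontal axis) and the -log10 of its unadjusted p (edgeR, vertical axis), with the 90 higher genes in red, the 87 lower genes in blue and the genes that were not called in grey. Nofu_gene_3_0008927 stands highest at a log2 fold change of -1.92, and APOEB, BLNK, ANLN and BHLHE41 lie in the grey cloud just under the called genes.

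The change with the lowest adjusted p was a fall of the contig Nofu_gene_3_0008927, which has no name in the tables used. It had 292, 264, 281, 357 and 298 CPM in the brains of 39 weeks, against 1588, 969.6, 1421, 1008 and 652 CPM in those of 27 weeks. The lowest brain of 27 weeks lay well above the highest of 39 weeks, and the brains of 39 weeks were close to each other. The fitted difference was -1.92 on the log2 scale (SE of the fit 0.27, edgeR adjusted p = 0.0048), and this contig was called under all 21 alternatives, including each library left out. A second unnamed contig, Nofu_gene_3_0011866, had 15.3 to 25.4 CPM at 39 weeks and 43.0 to 74.3 CPM at 27 weeks (log2 fold change -1.60 ± 0.34 SE, edgeR adjusted p = 0.035). Over 5, 12, 20, 27 and 39 weeks it averaged 20.0, 56.2, 42.9, 61.9 and 20.5 CPM. It is paired with a zebrafish gene by an identifier without a name, so whether it belongs to a list below was not examined. Of the unnamed contigs without overlap between the ages, Nofu_gene_3_0008005 rose most, to 5.68 ± 1.42 CPM at 39 weeks against 1.90 ± 0.66 CPM at 27 weeks (SD, n = 5 each; log2 fold change 1.58, adjusted p = 0.041 from edgeR). Nofu_gene_3_0012029 followed with 2.14 ± 0.36 CPM at 39 weeks and 0.95 ± 0.15 CPM at 27 weeks (log2 fold change 1.16, adjusted p = 0.039 from edgeR). Both are low, so that their values rest on few reads.

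Among the genes of the circadian clock, 1 of the 3 tested activators was called and 0 of the 4 on the list of repressors and output, beside 1.07% of all genes. Clock genes whose names come after C1QL4 in the alphabet could not be listed. The members were chosen with earlier results of these data known, so these counts are no test of the clock. ARNTL2, a BMAL-type activator, had 61.3, 52.5, 30.3, 47.7 and 34.6 CPM at 39 weeks, against 13.9, 17.4, 23.3, 21.6 and 23.7 CPM at 27 weeks. Every brain of 39 weeks lay above every brain of 27 weeks, and JM1 and JM12 were the highest. The log2 fold change of ARNTL2 was 1.18 (SE 0.29, edgeR adjusted p = 0.048 and 0.0043 from DESeq2), the largest rise among the named genes called. ARNTL1A, the related activator, had 64.0 to 84.4 CPM at 39 weeks and 41.3 to 56.8 CPM at 27 weeks, without overlap, but did not pass the test (log2 fold change 0.51 ± 0.20 SE, edgeR adjusted p = 0.14). ARNTL2 (2 OF 2) had 4.57 to 12.2 CPM at 39 weeks and 3.50 to 12.4 CPM at 27 weeks, and its ages overlapped (adjusted p = 0.48 from edgeR).

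The list of repressors and output held the repressors BHLHE41 and BHLHE40 and the output genes AANAT1 and AANAT (1 OF 3). Of these 0 passed edgeR's test. The output genes were low, AANAT1 with means of 0.95 CPM at 39 weeks and 1.19 CPM at 27 weeks. AANAT (1 OF 3) averaged 0.495 CPM at 39 weeks and 0.479 CPM at 27 weeks. Both CIART copies stand outside this list and are shown for their own change. BHLHE41, a transcriptional repressor of the clock, had 82.0, 91.1, 101, 77.0 and 113 CPM at 39 weeks, against 197, 171, 126, 188 and 236 CPM at 27 weeks. The ages did not overlap, and the log2 fold change of -0.98 (SE 0.27) had an adjusted p of 0.067 from edgeR and 0.024 from DESeq2. C1ORF51 (1 OF 2), the homologue of the clock repressor CIART, had 6.84, 12.5, 22.8, 12.4 and 20.4 CPM at 39 weeks, against 44.5, 30.9, 25.0, 32.7 and 37.2 CPM at 27 weeks. No brain of 39 weeks reached the lowest of 27 weeks, with a log2 fold change of -1.18 (SE 0.32, edgeR adjusted p = 0.062 and 0.020 from DESeq2). This copy was named because DESeq2 called it without overlap of the ages, so neither outcome is further support for a clock pattern. C19H1ORF51 (1 OF 2), a second copy that was added after its values were seen, had 9.96, 26.3, 17.3, 7.95 and 11.3 CPM at 39 weeks, against 71.7, 35.3, 25.2, 52.1 and 65.1 CPM at 27 weeks. Here JM12 of 39 weeks overlapped with JM66 of 27 weeks (log2 fold change -1.78 ± 0.47 SE, edgeR adjusted p = 0.057 and 0.015 from DESeq2). BHLHE40 averaged 325 ± 86.1 CPM at 39 weeks and 399 ± 63.5 CPM at 27 weeks (SD, n = 5 each) and did not pass either test. None of these repressor genes passed edgeR's threshold with all libraries, and the activator ARNTL2 passed it in 8 of 21 alternatives.

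Several of these genes, but not all, also differed between 12 and 5 weeks. C1ORF51 (1 OF 2) averaged 31.2 CPM at 5 weeks and 36.8 CPM at 12 weeks (log2 fold change 0.24, edgeR adjusted p = 0.62). ARNTL2 (2 OF 2) had 4.83 to 5.74 CPM at 5 weeks and 3.66 to 5.97 CPM at 12 weeks, with overlap. The means compared come from other brains than those of 39 and 27 weeks, but both comparisons share the spread estimated over all 25 libraries. BHLHE41 averaged 61.8, 227, 165, 184 and 92.9 CPM at the 5 ages in order (5, 12, 20, 27, 39 weeks), and C19H1ORF51 (1 OF 2) 5.96, 50.1, 48.2, 49.9 and 14.6 CPM. ARNTL2 averaged 44.5, 19.4, 36.3, 20.0 and 45.3 CPM and ARNTL1A 73.0, 38.4, 71.9, 50.3 and 71.8 CPM at these ages. At 12 weeks BHLHE41 exceeded its level at 5 weeks (log2 fold change 1.88, adjusted p = 5.2e-05 from edgeR) and ARNTL2 lower (log2 fold change -1.19, adjusted p = 0.0045), each opposite in sign to its change between 39 and 27 weeks. The difference between the 2 steps, given as a description since these genes were named for their change in the last step or their part in the clock, was -2.86 for BHLHE41 (adjusted p = 0.00025), -4.85 for C19H1ORF51 (1 OF 2) (adjusted p = 0.00028), 2.37 for ARNTL2 (adjusted p = 0.00073) and 1.44 for ARNTL1A (adjusted p = 0.0015), on the log2 scale and from the same edgeR model. The spread at 20 weeks was wide for all of these genes, with an SD of 79.8 CPM for BHLHE41 and of 18.6 CPM for ARNTL2. In JM75 of that age BHLHE41 had 40.5 CPM and C19H1ORF51 (1 OF 2) 4.79 CPM, the lowest of the 20-week brains. ARNTL2 had 65.7 CPM and ARNTL1A 116 CPM in the same brain, the highest at 20 weeks. For BHLHE41, C19H1ORF51 (1 OF 2), ARNTL2 and ARNTL1A, JM75 differed from the other 20-week brains in the directions seen at 39 against 27 weeks. C1ORF51 (1 OF 2) and BHLHE40 were also lowest in JM75 at that age, at 8.03 and 252 CPM. Other genes went the opposite way. ARNTL2 (2 OF 2), higher at 39 weeks but not called, was lowest in JM75 at 5.25 CPM. Nofu_gene_3_0008927, which fell at 39 weeks, was highest in JM75 at 1061 CPM. These values describe a single brain.

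**Figure D4:**
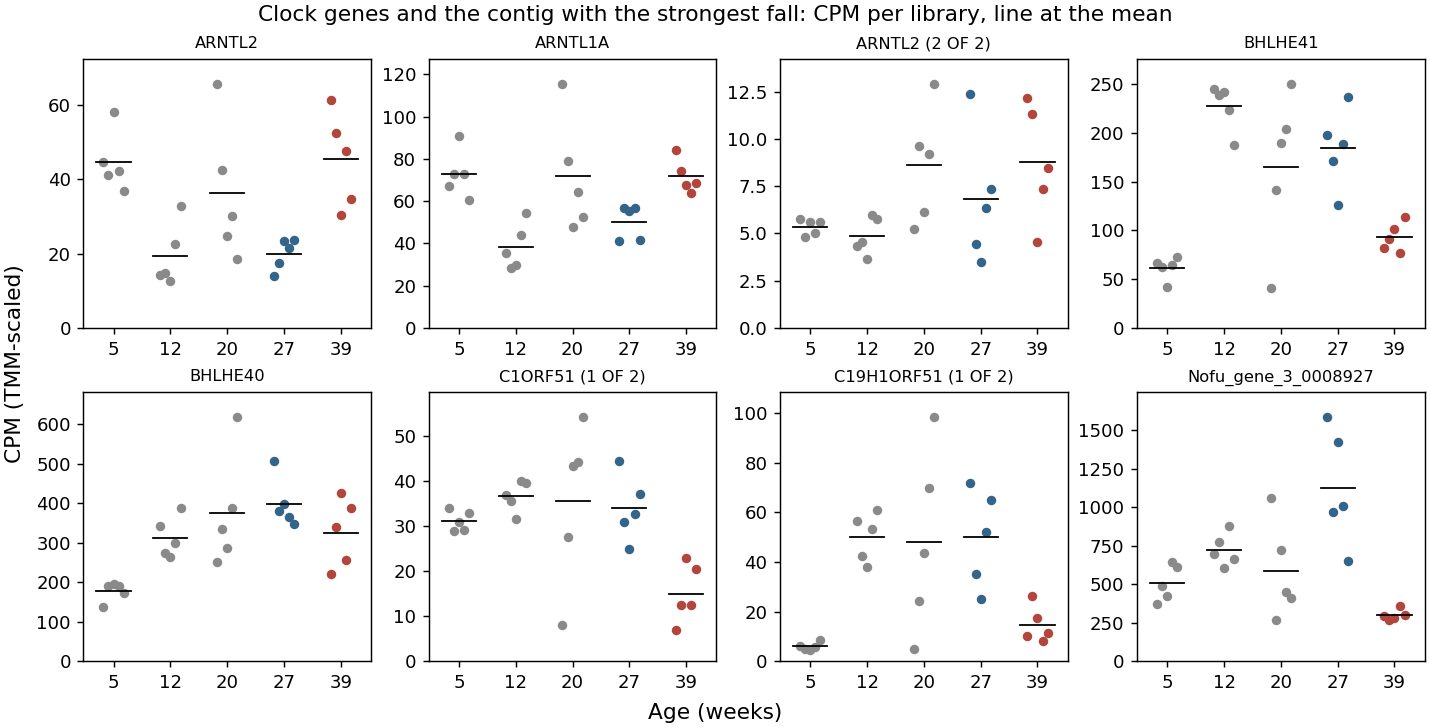
CPM per library (vertical axes, starting at 0) at 5, 12, 20, 27 and 39 weeks for 7 clock genes and the contig Nofu_gene_3_0008927, 1 point per brain with a line at the mean, 27 weeks in blue and 39 weeks in red. BHLHE41 averages 92.9 CPM at 39 weeks and 184 CPM at 27 weeks, and ARNTL2 averages 45.3 CPM at 39 weeks and 20.0 CPM at 27 weeks, with wide spreads at 20 weeks.

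Of the 1906 named genes 19 were called (0.997%), of which 8 fell. B3GALTL (1 OF 2), a glucosyltransferase that modifies thrombospondin-type repeats, had the lowest adjusted p among them. It had 15.8, 13.7, 16.8, 15.9 and 15.3 CPM at 39 weeks, against 20.4, 20.1, 20.4, 20.1 and 20.3 CPM at 27 weeks. The SD of 0.16 CPM at 27 weeks was smaller than counting noise alone would give for 372 to 444 reads per library. It is therefore no measure of how alike these animals were. The fall was small but larger than its SE (log2 fold change -0.39 ± 0.07 SE, edgeR adjusted p = 0.028). ADRA2B, an inhibitory receptor for noradrenaline, had 37.2, 37.2, 41.6, 34.7 and 38.8 CPM at 39 weeks, against 69.0, 56.4, 55.9, 43.7 and 42.7 CPM at 27 weeks. Its brains of 39 weeks all lay below those of 27 weeks, by little in JM69 and JM72 (log2 fold change -0.50 ± 0.10 SE, edgeR adjusted p = 0.034).

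ARRDC2, an arrestin-domain protein, had 29.1, 59.3, 39.1, 40.7 and 42.6 CPM at 39 weeks, against 79.9, 137, 63.4, 127 and 82.1 CPM at 27 weeks. No brain of 39 weeks reached 63.4 CPM, and the log2 fold change of -1.21 (SE 0.27, edgeR adjusted p = 0.041) was the largest fall among the named genes called. Like BHLHE41 it had risen between the brains of 5 and 12 weeks (1.34 on the log2 scale, edgeR adjusted p = 0.0013). AMOTL2A, an angiomotin-like regulator of junctions and of the Hippo pathway, averaged 5.38 ± 1.37 CPM at 39 weeks and 9.58 ± 2.29 CPM at 27 weeks (SD, n = 5 each), and its ages overlapped in part (log2 fold change -0.83, adjusted p = 0.049 from edgeR). AFAP1, which crosslinks actin filaments, averaged 36.1 ± 4.30 CPM at 39 weeks and 45.5 ± 4.06 CPM at 27 weeks. ANKRD27, which acts in endosomal trafficking, averaged 36.4 ± 3.20 CPM at 39 weeks and 45.1 ± 3.03 CPM at 27 weeks, without overlap. BICC1 (2 OF 2), an RNA-binding protein, averaged 18.8 ± 3.99 CPM at 39 weeks and 27.0 ± 2.50 CPM at 27 weeks. AGAP005884, a name carried over from an insect gene, averaged 29.3 ± 1.99 CPM at 39 weeks and 40.4 ± 6.94 CPM at 27 weeks. These last 4 genes had log2 fold changes of -0.52 to -0.31 and adjusted p-values of 0.048 to 0.049 from edgeR, just under the threshold.

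A further 11 named genes rose, ARNTL2 among them. AKAP17A, a protein that binds the splicing machinery and anchors protein kinase A, had 38.0, 37.7, 29.6, 36.3 and 31.8 CPM at 39 weeks, against 29.0, 24.4, 26.6, 22.9 and 24.3 CPM at 27 weeks. All brains of 39 weeks lay above those of 27 weeks, JM13 by the least (log2 fold change 0.45 ± 0.08 SE, edgeR adjusted p = 0.029). ABCF1, an ATP-binding protein that promotes the initiation of translation, had 85.9, 109, 72.3, 97.6 and 74.8 CPM at 39 weeks, against 61.6, 54.5, 60.5, 68.9 and 58.3 CPM at 27 weeks. The ages did not overlap, and JM13 and JM18 were again the lowest at 39 weeks (log2 fold change 0.53 ± 0.12 SE, edgeR adjusted p = 0.041). ABCF1 was lower at 12 than at 5 weeks (log2 fold change -0.50, adjusted p = 0.0043 from edgeR). The difference between the steps was 1.03 (edgeR adjusted p = 0.00057). It is given as a description, since ABCF1 was named for its change in the last step, which is part of this difference.

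Of the related ATP-binding proteins named after their values were seen, ABCE1, which separates ribosomal subunits after termination, averaged 185 ± 34.9 CPM at 39 weeks and 134 ± 21.3 CPM at 27 weeks (adjusted p = 0.092 from edgeR and 0.042 from DESeq2). ABCF3 averaged 40.6 ± 13.4 CPM at 39 weeks and 25.2 ± 5.05 CPM at 27 weeks (adjusted p = 0.076 from edgeR and 0.025 from DESeq2). For both the ages overlapped.

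ACADM, the medium-chain acyl-CoA dehydrogenase of mitochondrial fatty acid oxidation, had 190.1, 199, 199, 199 and 195 CPM at 39 weeks, against 143, 133, 153, 153 and 185 CPM at 27 weeks. The brains of 39 weeks were close to each other, and JM72 of 27 weeks came near them (log2 fold change 0.36 ± 0.09 SE, edgeR adjusted p = 0.048). BBS2, a subunit of the BBSome that carries cargo into cilia, averaged 78.7 ± 7.82 CPM at 39 weeks and 62.9 ± 3.68 CPM at 27 weeks (SD, n = 5 each), without overlap. BRAP, a ubiquitin ligase of Ras signalling, averaged 44.5 ± 5.66 CPM at 39 weeks and 35.8 ± 0.60 CPM at 27 weeks, also without overlap. As for B3GALTL (1 OF 2), the SD of BRAP at 27 weeks was smaller than counting noise alone would give. C17H14ORF159, known in mammals as the D-glutamate cyclase DGLUCY, averaged 28.1 ± 4.65 CPM at 39 weeks and 20.4 ± 1.27 CPM at 27 weeks, and C19H1ORF85, known as the lysosomal membrane protein GLMP, averaged 40 ± 7.33 CPM at 39 weeks and 29.8 ± 2.75 CPM at 27 weeks. BTBD9, a BTB-domain protein studied in the sleep of flies and mice, averaged 45.5 ± 7.40 CPM at 39 weeks and 34.6 ± 2.28 CPM at 27 weeks. AAGAB, which binds adaptor subunits of clathrin coats, averaged 30.9 ± 3.10 CPM at 39 weeks and 24.6 ± 2.58 CPM at 27 weeks, and ANKRD49 averaged 13.7 ± 1.07 CPM at 39 weeks and 10.7 ± 0.85 CPM at 27 weeks. These 7 genes rose by 0.31 to 0.46 on the log2 scale, with adjusted p-values of 0.041 to 0.049 from edgeR. In BBS2, BRAP, C17H14ORF159, BTBD9 and ANKRD49 the 2 highest brains were JM1 and JM12, the brains that also lay farthest along the first component.

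**Figure D5:**
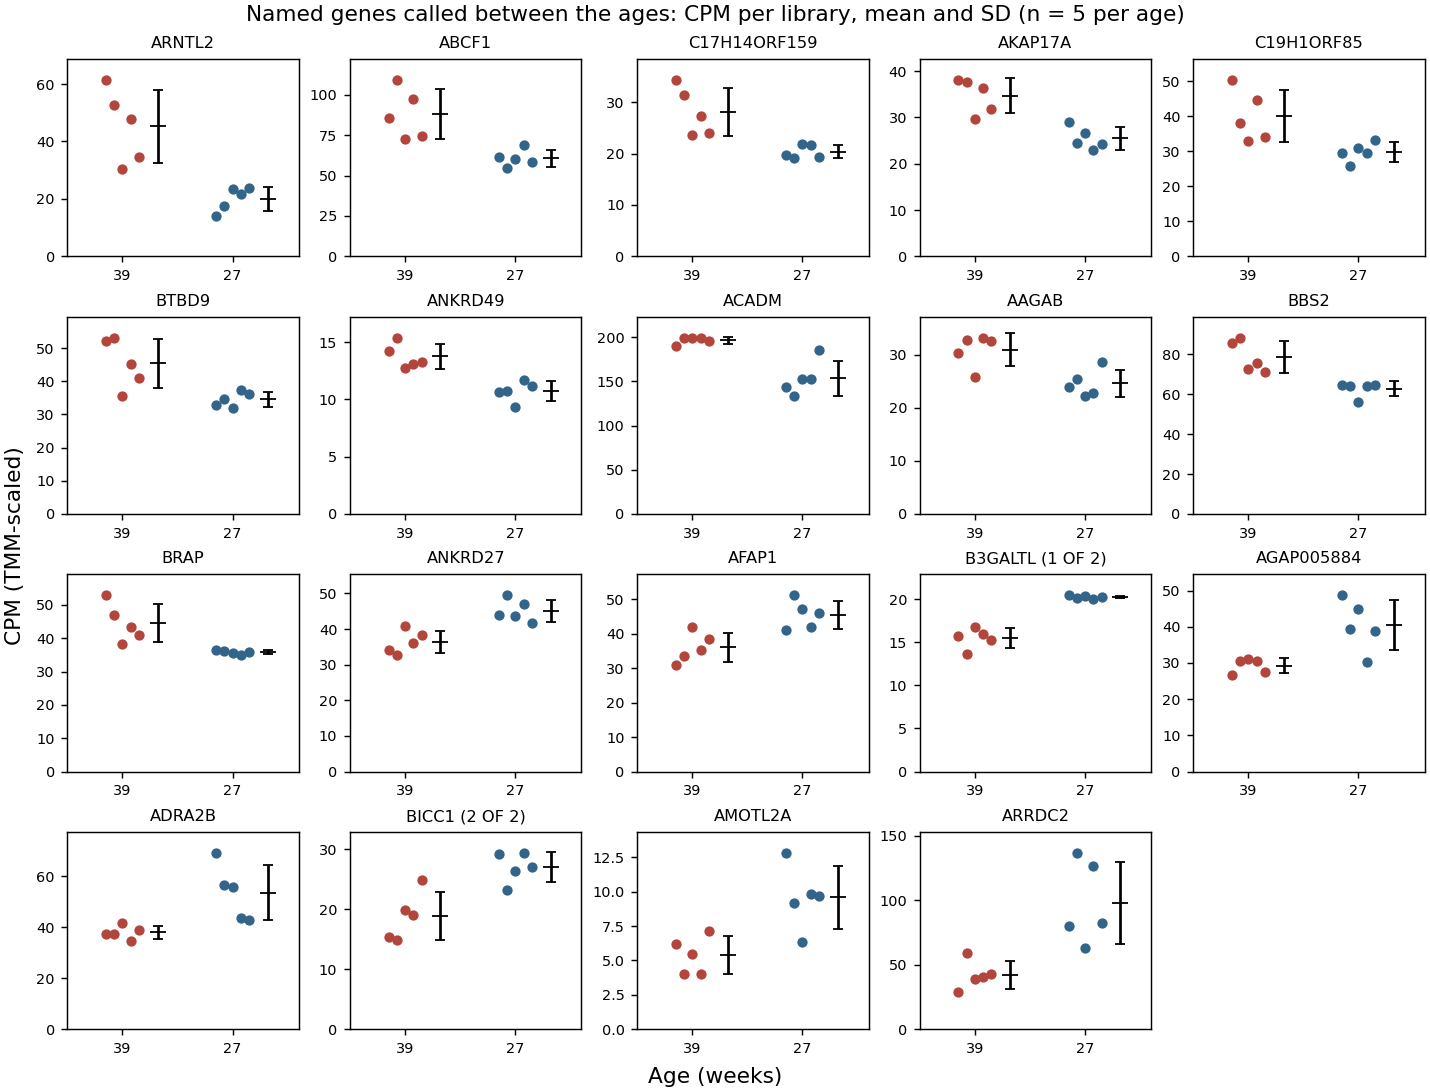
CPM per library (vertical axes, starting at 0) for the 19 named genes with an adjusted p below 0.05, 39 weeks left in red and 27 weeks right in blue, with the mean and SD of 5 brains beside the points. The 11 genes higher at 39 weeks come first, from ARNTL2 to BRAP, and the 8 lower genes follow, down to ARRDC2 with 42.2 CPM at 39 weeks and 97.8 CPM at 27 weeks.

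A further 73 named genes were called by DESeq2 alone, 38 higher and 35 lower at 39 weeks, and the largest changes among those without overlap were falls. ANLN, an anillin that organises the contractile ring of dividing cells, had 1.30, 1.01, 3.97, 1.75 and 3.00 CPM at 39 weeks, against 6.0, 12.5, 5.28, 4.74 and 10.1 CPM at 27 weeks. The ages did not overlap, and JM13 and JM18 of 39 weeks were nearest to 27 weeks (log2 fold change -1.79 ± 0.46 SE, edgeR adjusted p = 0.055 and 0.011 from DESeq2). ANLN was also lower at 12 than at 5 weeks (log2 fold change -2.06, adjusted p = 0.0015 from edgeR), the same direction as in the last step. Its means did not fall at every age, with 22.3, 5.34, 3.41, 7.72 and 2.21 CPM at 5, 12, 20, 27 and 39 weeks. From 20 to 27 weeks the log2 fold change was 1.19 (edgeR adjusted p = 0.40). BAI1 (3 OF 3), an adhesion receptor with thrombospondin-type repeats, averaged 228 ± 44.2 CPM at 39 weeks and 403 ± 101 CPM at 27 weeks (log2 fold change -0.82, adjusted p = 0.055 from edgeR and 0.0082 from DESeq2). ADCK3 (2 OF 2), a kinase-like protein of coenzyme Q synthesis, averaged 10.8 ± 3.54 CPM at 39 weeks and 17 ± 3.89 CPM at 27 weeks. ATF5 (1 OF 2), a stress-responsive transcription factor, averaged 23.4 ± 4.56 CPM at 39 weeks and 34.1 ± 4.88 CPM at 27 weeks, and APAF1, the scaffold of the apoptosome, averaged 11.4 ± 2.34 CPM at 39 weeks and 16.2 ± 0.47 CPM at 27 weeks. The SD of APAF1 at 27 weeks was smaller than counting noise alone would give for 293 to 353 reads per library. The adhesion molecules ALCAMB and BCAM and the basal body protein ARMC9 completed the 10 falls, with log2 fold changes of -0.31, -0.30 and -0.24. In the other direction only 3 genes met the same conditions, C15ORF58 (log2 fold change 0.50), the cilium-linked ANKMY2A (0.33) and ABHD8 (1 OF 2) (0.24), with adjusted p-values of 0.064 to 0.092 from edgeR.

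The genes discussed by name in the study that had a row among the named part were MEX3A and AGR2, of which AGR2 was low. MEX3A, an RNA-binding protein of progenitor cells, averaged 9.72 ± 3.54 CPM at 39 weeks and 16.7 ± 6.24 CPM at 27 weeks (adjusted p = 0.093 from edgeR and 0.036 from DESeq2), and it averaged 54.5 ± 9.53 CPM at 5 weeks. Its ages of 39 and 27 weeks overlapped, and JM62 of 27 weeks had 27.4 CPM against 12.3 to 16.2 CPM in the other brains of that age. AGR2, a protein disulfide isomerase, averaged 0.23 ± 0.25 CPM at 39 weeks and 0.20 ± 0.06 CPM at 27 weeks, and a difference was not detectable at this depth (adjusted p = 0.89 from edgeR).

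Some immune and lipid genes had higher values in part of the old brains and did not pass edgeR's test. Of the 12 tested genes of the microglia and leukocyte list 0 were called by edgeR, beside 1.07% of all genes, and 2 by DESeq2, beside 5.90%. DESeq2 called BLNK, an adaptor of B cell receptor signalling, as higher and AXL (2 OF 2), a receptor tyrosine kinase of phagocytes, as lower. BLNK had 8.01, 20.5, 12.5, 29.4 and 14 CPM at 39 weeks, against 11.4, 7.09, 10.3, 7.37 and 5.98 CPM at 27 weeks, and JM1 lay within the range of 27 weeks (log2 fold change 1.01 ± 0.31 SE, edgeR adjusted p = 0.081). AXL (2 OF 2) averaged 12.8 ± 1.63 CPM at 39 weeks and 18.1 ± 3.31 CPM at 27 weeks. AIF1, the microglial protein IBA1, had 17.7 CPM in JM15 and 8.53 to 10.2 CPM in the other brains of 39 weeks, against 6.98 to 10.2 CPM at 27 weeks. The summed level of the list was 66.6 to 113 CPM at 39 weeks and 71.2 to 95.4 CPM at 27 weeks, so the list as a whole overlapped between the ages.

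All 3 genes of the complement and pentraxin list had log2 fold changes above 0. Of them 0 were called by either tool, beside 1.07% of all genes by edgeR and 5.90% by DESeq2. C1QC, a chain of the first complement component, had 7.94, 14.8, 13.8, 33.3 and 14 CPM at 39 weeks, against 8.30, 9.74, 8.08, 10.7 and 5.48 CPM at 27 weeks, with the highest value in JM15 as for BLNK and AIF1. C1QB, another chain of the same protein, averaged 8.92 ± 1.02 CPM at 39 weeks and 8.53 ± 0.83 CPM at 27 weeks, and APCS, a pentraxin, 33.1 ± 14.4 CPM at 39 weeks and 19.1 ± 5.02 CPM at 27 weeks. Of the 13 apolipoproteins 6 had values above 0 and 7 below, and DESeq2 called 1, against 5.90% of all genes, APOEB, the apolipoprotein E that glia secrete to carry lipids. APOEB had 711, 1516, 774, 1402 and 739 CPM at 39 weeks, against 903, 461, 552, 601 and 396 CPM at 27 weeks. Its level was high in JM12 and JM15, and JM52 of 27 weeks lay above 3 brains of 39 weeks (log2 fold change 0.82 ± 0.22 SE, edgeR adjusted p = 0.063 and 0.012 from DESeq2).

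In most other lists few genes or none were called, beside a background of 1.07% by edgeR and 5.90% by DESeq2, and the median fold change over all genes was 0.00028 on the log2 scale. All 17 tested genes of the mitochondrial ATP synthase, which makes most of the ATP of the cell, had log2 fold changes above 0, with a median of 0.13, and 0 were called by either tool. Examples are ATP5A1 with 649 ± 36.7 CPM at 39 weeks and 601 ± 73.5 CPM at 27 weeks and ATP5B with 793 ± 87.1 CPM at 39 weeks and 744 ± 101 CPM at 27 weeks. ATP5G3 (1 OF 2) averaged 320 ± 22.5 CPM at 39 weeks and 288 ± 38.8 CPM at 27 weeks. In each of them the ages overlapped, and the genes share libraries and are not independent. Of the 21 genes of the vacuolar ATPase, the proton pump of lysosomes and synaptic vesicles, 15 had values above 0 and 6 below (median 0.10), among them ATP6V1A with 491 ± 36.5 CPM at 39 weeks and 451 ± 45.6 CPM at 27 weeks and ATP6V0CB with 507 ± 29.7 CPM at 39 weeks and 454 ± 59.7 CPM at 27 weeks.

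Of the 20 autophagy genes 15 had values above 0 and 5 below (median 0.09), and of the 14 chaperone genes 11 and 3 (median 0.13). By DESeq2 2 chaperone-linked genes, BAG4 and AHSA1, were called higher and 1 autophagy gene, ATG9B, lower, beside 5.90% of all genes. Of the 16 cell death genes 0 were called by edgeR, beside 1.07% of all genes, and 3 by DESeq2, beside 5.90%. These 3 were BCL2L13 as higher and APAF1 and BCL2 (1 OF 2) as lower. BCL2L13, a mitochondrial member of the BCL2 family, averaged 65.0 ± 10.7 CPM at 39 weeks and 49.8 ± 6.16 CPM at 27 weeks (adjusted p = 0.052 from edgeR and 0.011 from DESeq2).

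The neuronal lists held more values below 0 than above, with 0 genes called by either tool, beside 1.07% of all genes by edgeR and 5.90% by DESeq2. The genes of a list share libraries and are not independent. Of the 23 synapse and axon genes 16 were below 0 and 7 above (median -0.14). BSN (1 OF 2), the scaffold bassoon of the active zone, averaged 338 ± 49.7 CPM at 39 weeks and 423 ± 88.7 CPM at 27 weeks. AP2B1, an adaptor of clathrin-mediated endocytosis, averaged 399.9 ± 38.0 CPM at 39 weeks and 439.9 ± 26.5 CPM at 27 weeks. BASP1, a growth cone protein, went the other way with 776 ± 79.4 CPM at 39 weeks and 731 ± 133 CPM at 27 weeks, and in all 3 the ages overlapped. Of the 9 neuropeptide and trophic factor genes 7 were below 0 and 2 above (median -0.13), and of the 15 proneural and fate factors 9 and 6 (median -0.13). The 20 metalloproteases, which are not a neuronal list, had 14 values below 0 and 6 above (median -0.10), also with 0 called by either tool.

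In the matrix list 5 of 9 genes were above 0 and 4 below (median 0.09), with 0 called by either tool, beside 1.07% of all genes by edgeR and 5.90% by DESeq2. AGRN, the synapse organiser agrin, averaged 183 ± 33.1 CPM at 39 weeks and 235 ± 43.8 CPM at 27 weeks, and BCAN, the proteoglycan brevican, 193 ± 49.6 CPM at 39 weeks and 242 ± 63.8 CPM at 27 weeks. The second brevican copy, BCAN (2 OF 2), averaged 73.0 ± 11.6 CPM at 39 weeks and 62.5 ± 25.0 CPM at 27 weeks. The ages overlapped in all 3 genes.

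Genes of cell division and DNA repair, lists of 11 and 18 tested genes, had 0 calls by edgeR, beside 1.07% of all genes. DESeq2 called 1 of them, ANLN, beside 5.90% of all genes. The median log2 fold changes were 0.07 and 0.01. BUB3, a protein of the spindle checkpoint, averaged 23.6 ± 4.43 CPM at 39 weeks and 18.3 ± 1.27 CPM at 27 weeks, and ATM, the kinase that senses DNA breaks, 33.6 ± 4.31 CPM at 39 weeks and 41.4 ± 5.44 CPM at 27 weeks, and both overlapped. Of the 32 chromatin regulators 18 were above 0 and 14 below. DESeq2 called 2 of the 32 as lower, ARID1B and ARID1AB of the BAF remodelling complex, beside 5.90% of all genes in either direction. ARID1AB averaged 143 ± 16.0 CPM at 39 weeks and 177 ± 25.0 CPM at 27 weeks (adjusted p = 0.070 from edgeR and 0.026 from DESeq2).

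Markers of glia and vessels of the brain, and of tissues that a dissection may carry along, showed 0 calls by either tool in all 8 lists. Beside this stand 1.07% of all genes by edgeR and 5.90% by DESeq2. The lists held 1 to 10 tested genes each, too few for 0 calls to be read as no change. Their median log2 fold changes lay between -0.21 (skin, bone and fin, 1 above 0 and 5 below) and 0.31 (oligodendrocyte, 1 gene). Skeletal muscle had 8 above 0 and 2 below (median 0.26). No tested marker averaged under 0.1 CPM over the 10 libraries. The summed levels of skeletal muscle markers were 146 to 307 CPM at 39 weeks and 130 to 206 CPM at 27 weeks, and those of astroglia and radial glia 2573 to 2950 CPM at 39 weeks and 2409 to 2906 CPM at 27 weeks, with ALDOCB, the brain aldolase, giving most of that sum. Markers of plasma proteins and liver summed to 897 to 1779 CPM at 39 weeks and 916 to 2156 CPM at 27 weeks, and of vessels to 235 to 358 CPM at 39 weeks and 217 to 313 CPM at 27 weeks. The oligodendrocyte list held 1 gene with a name, ASPA, at 42.0 to 83.6 CPM at 39 weeks and 35.5 to 74.6 CPM at 27 weeks. Genes that respond early to handling, such as BTG1 and ATF3, summed to 95.4 to 121 CPM at 39 weeks and 94.7 to 157 CPM at 27 weeks, with 4 of 4 fold changes below 0 and 0 called, and genes of hypoxia and glycolysis summed to 595 to 875 CPM at 39 weeks and 563 to 686 CPM at 27 weeks. The part of these sources in the changes above was not tested.

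The genes that changed in the last step were also followed in the first step sampled, 12 against 5 weeks, in which 3920 genes (23.8%) were called, 1776 (10.8%) with a rise and 2144 (13.0%) with a fall at 12 weeks. Of the 90 genes higher at 39 than at 27 weeks, 20 (22.2%) were lower and 5 (5.56%) were higher at 12 than at 5 weeks. These 20 genes are 0.933% of the genes lower at 12 weeks. Of the 87 genes lower at 39 than at 27 weeks, 14 (16.1%) were higher and 9 (10.3%) were lower at 12 weeks. Thus 34 of the 48 genes called in both steps moved in opposite directions and 14 in the same direction. Over all genes tested the difference between the steps passed its own test in 20.0% (edgeR, adjusted p below 0.05). Among the 973 DESeq2 calls of the last step the shares that edgeR called in the first step were 25.0% lower and 8.97% higher for the genes that rose, and 10.9% higher and 8.46% lower for the genes that fell. Without the 6 libraries marked w0w1 the 4 counts of 20, 5, 14 and 9 became 0, 1, 3 and 1, since few genes were then called in the last step. Over all 16484 genes the log2 fold changes of the 2 steps had a Pearson correlation of -0.089 and a Spearman correlation of -0.14, across genes that are not independent replicates.

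Between the 2 steps, fewer genes were called at adjacent ages. At 20 against 12 weeks edgeR called 8 higher genes and 1 lower, with 1646 at an unadjusted p below 0.05, and DESeq2 41 and 16. At 27 against 20 weeks edgeR called 0 and 0 genes, with 1619 at an unadjusted p below 0.05, and DESeq2 8 and 13. None of the 177 genes of the last step was among the edgeR calls of either comparison.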

How the data were processed

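RNA of 25 whole brains was sequenced as single reads, and the authors mapped reads uniquely to transcript contigs with Bowtie. Per the labels, featureCounts 1.4.3-p1, TopHat2 2.0.6 and CASAVA were used too, in steps that are not given. The deposited counts are whole numbers per contig with no normalization (18228 contigs). The deposited RPKM values, which the authors scaled by contig length and mapped reads, served only to pair names with contigs: the shares of RPKM over the 5 ages in the held part of a supplementary name table matched 1 row to within 3e-06 for 1994 of 1999 names. A later count table of 23546 gene models, whose processing is not given in the sources used here, was an alternative. Its RPKM table was not used.

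Counts were normalised by TMM and tested with edgeR 4.0.16 (R 4.3.3; filterByExpr, quasi-likelihood test, 1 model of 25 libraries, Benjamini-Hochberg). Alternatives were DESeq2 1.42.0 (no adjusted p for 3202 genes, which count as not called), limma-voom (limma 3.58.1), other scalings and filters, the w0w1 mark, and each library left out. Figures were drawn with matplotlib 3.10.9. p-values measure the spread between animals, and since no molecular identifiers were used, reads are not independent molecules.

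Named were all named genes past the test, the 10 higher and 10 lower of largest change called by DESeq2 alone with a mean of at least 1 CPM at the higher age and no overlap, up to 4 members of each of 39 lists, 2 unnamed contigs per direction, and genes of the study's text. Members and lists were chosen with earlier results of these data known. On simulated data for 39 against 27 weeks (16484 genes), edgeR recovered 77 of 100 genes changed 2-fold and 55 of 100 changed 1.5-fold, with 3 false among 135 calls. DESeq2 recovered 79 and 57, with 11 false among 147 calls, and edgeR on the 10 libraries 66 and 49, with 5 false among 120. The simulation drew each gene independently, without shifts shared by many genes of a library, so these rates need not hold for the real brains. On the real counts edgeR with the 10 libraries alone called 0 higher and 2 lower genes. Results for some genes are not reported here.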

Additional observations from a re-analysis of the deposited data

Results flagged for a closer look

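Among 69 genes and 138 groups of 5 brains, 11 groups held a brain far from the other 4, where chance alone gives about 1 in 20. In JM1 of 39 weeks this was BCAN (2 OF 2) at 93.4 CPM (others 65.2 to 70.2 CPM). In JM13 of 39 weeks this was Nofu_gene_3_0008005 at 3.15 CPM (others 6.12 to 6.54 CPM). In JM15 of 39 weeks this was AIF1 at 17.7 CPM (others 8.53 to 10.2 CPM) and C1QC at 33.3 CPM (others 7.94 to 14.8 CPM). In JM52 of 27 weeks this was ADCK3 (2 OF 2) at 23.8 CPM (others 14.4 to 16.1 CPM), ATF5 (1 OF 2) at 42.6 CPM (others 30.7 to 33.3 CPM) and AIF1 at 10.2 CPM (others 6.98 to 7.68 CPM). In JM62 of 27 weeks this was MEX3A at 27.4 CPM (others 12.3 to 16.2 CPM) and C1QB at 7.09 CPM (others 8.57 to 9.07 CPM). In JM66 of 27 weeks this was BBS2 at 56.3 CPM (others 64 to 64.9 CPM). In JM72 of 27 weeks this was AXL (2 OF 2) at 12.2 CPM (others 19 to 20 CPM).

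The step of 39 against 27 weeks was also set against the step of 12 against 5 weeks, whose means come from other brains although the spread is shared. For 29 of the 69 genes the difference of the log2 fold changes passed the test of the difference itself (edgeR, adjusted p below 0.05). Many of these genes were named for their change in the last step, so this number is no result about them. It was below 0 for Nofu_gene_3_0008927 (-2.43), C19H1ORF51 (1 OF 2) (-4.85), Nofu_gene_3_0011866 (-3.09), ARRDC2 (-2.55), C1ORF51 (1 OF 2) (-1.41), BHLHE41 (-2.86), BAI1 (3 OF 3) (-1.53), BICC1 (2 OF 2) (-0.56), ADRA2B (-0.71), B3GALTL (1 OF 2) (-0.32), BCAM (-0.36) and BHLHE40 (-1.11). It was above 0 for ATP5A1 (0.41), ATP5G3 (1 OF 2) (0.4), BBS2 (0.52), ANKMY2A (0.48), AAGAB (0.49), ACADM (0.37), ANKRD49 (0.68), BUB3 (1.18), BCL2L13 (0.39), BTBD9 (0.47), AKAP17A (0.55), ABCE1 (0.93), ARNTL1A (1.44), ABCF1 (1.03), ABCF3 (1.27), Nofu_gene_3_0012029 (1.88) and ARNTL2 (2.37). The highest adjusted p among them was 0.045, for BCL2L13, and the lowest 0.00025, for BHLHE41. The lowest difference belonged to C19H1ORF51 (1 OF 2), which was added after its values were seen. The highest belonged to ARNTL2, which was named for its call in the last step. Their places in the range are therefore no result about clock genes, and their values by age are given above.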

How the results depend on the processing

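The counts of 90 higher and 87 lower genes stayed within 1.5 times under RLE (91 and 84) and upper-quartile scaling (88 and 96) and a stricter filter (90 and 91). They became 42 and 54 without a filter, 524 and 449 with DESeq2, 0 and 2 with edgeR and 198 and 234 with DESeq2 on the 10 libraries alone, 40 and 53 with limma-voom, 43 and 59 with w0w1 as a factor, 2 and 9 without the libraries marked w0w1, 21 and 25 in the later table, and 0 and 15 without JM1 and JM12. With each library left out in turn they lay between 0 and 682 and between 1 and 575. The share of calls that were higher at 39 weeks, 50.8%, lay between 43.8% and 52.0% under other scalings and filters, was 53.9% with DESeq2, 43.0% with limma-voom and 42.2% with w0w1 as a factor, and fell to 18.2% without the libraries marked w0w1. It was 0% of 2 calls with edgeR on the 10 libraries alone, 0% of 15 without JM1 and JM12, and 0% to 56.4% with 1 library left out (15.0% without JM12, 32.1% without JM69, and 0% of 1 and of 3 calls without JM1 and without JM62). The numbers of genes called in both steps were 5 (higher, then of 12 against 5 weeks higher), 20 (higher and lower), 14 (lower and higher) and 9 (lower and lower). With DESeq2 in both steps they were 49, 144, 56 and 41, without the libraries marked w0w1 1, 0, 3 and 1, and with each library left out 0 to 57, 0 to 174, 0 to 52 and 0 to 62, an alternative chosen after the data were seen. The causes were not tested. Of the 23 called genes described, 23 kept their direction under 21 alternatives, and 1, Nofu_gene_3_0008927, passed the threshold under all of them. The alternatives reuse brains by which these genes were chosen, so a kept direction is no independent support. Over 69 genes the alternatives left the call as it was 1102 times, lost it 264 times and added it 77 times. Direction changed for AGR2 with limma-voom (-0.33) and without JM18 (-0.53; its range with 1 library left out was -0.53 to 0.58), and for ARNTL2 (2 OF 2) without JM1 and JM12 (-0.0012). No paired analysis was possible because the brains came from separate animals and no number is shared between the ages.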

Other observations

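Over all 16484 genes the log2 fold changes of 39 against 27 weeks and of 20 against 12 weeks, comparisons that share no brain, had a Pearson correlation of 0.25 and a Spearman correlation of 0.31 across genes, which are not independent replicates, while 9 genes were called between 20 and 12 weeks.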
